A study of Sus scrofa with 36 samples.

Results

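The transcripts described here are those of 41 translation initiation and elongation factors in the hippocampus of young pigs. They are the genes whose single annotated symbol starts with EIF or EEF, with EIF2AK2 left out, and each is represented by the probe set (the group of oligonucleotides that reads one transcript) of highest mean over all 36 arrays. They make up 41 of 6034 genes with a single symbol that were tested, and 41 of 18006 probe sets tested. All 41 chosen probe sets lay above the filter on dim signals. The symbols sat on 63 probe sets in all: 25 genes had 1 probe set and 16 had several.

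Translation in animal cells starts when eIF2, a GTP-binding complex, brings the initiator tRNA to the small ribosomal subunit, which eIF3 and the scanning factors prepare to read along the mRNA. The eIF4 group binds the cap at the mRNA's start and unwinds its leader, and eIF2B recharges eIF2 with GTP after each round. The eEF1 group then delivers each further tRNA to the ribosome during elongation. In the hippocampus, control of eIF2 and of the cap-binding factor eIF4E is known for its part in lasting synaptic change and memory, and mutations in eIF2B cause a white matter disease in humans.

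The animals were male Landrace and Large White cross piglets that came to the study at day 3 of life and were sampled at day 38. Control piglets received milk replacer with its basal lactoferrin (an iron-binding milk protein), whose level the labels do not quantify. The 2 other groups received the same replacer with added lactoferrin, 0.6 g/L in the medium dose group and 1.2 g/L in the high dose group. Each group had 12 piglets with 1 Affymetrix porcine array each, so every replicate was a separate animal. The labels also give each sample a set code, S1 to S5, without saying what it stands for. S1 held 2 control, 0 medium and 2 high dose samples, S2 held 2, 4 and 4 in that order, S3 held 3, 3 and 2, S4 held 3, 3 and 3, and S5 held 2, 2 and 1.

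The values are log2 signals on which 1 unit is a doubling, deposited to 1 decimal, so that neighbouring values differ by at least 0.1. Array medians lay between 6.6 and 6.7, and the arrays correlated with each other at a mean r of 0.983. High dose piglet 2 stood apart with a mean r of 0.961, followed by control piglets 10 (0.973) and 4 (0.976). These 3 arrays also had the lowest mean of the 3 hippocampal neuron markers measured (NEUROD1, PDYN and RGS14): 7.17 in high dose piglet 2, 6.83 in control piglet 10 and 7.33 in control piglet 4, while no medium dose array was below 8.30. For the F test over set codes and the relations with marker means, values without them are given too. Feeding differences of single factors and of markers are not given without all 3 of them, although all 3 are control or high dose arrays. Since the tissue was taken whole, fewer cells of a type and less RNA per cell cannot be told apart.

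No translation factor transcript passed the test for lactoferrin feeding. In a linear model across all probe sets with feeding group and set code as terms (limma with eBayes, two-sided, Benjamini-Hochberg adjustment over 18006 probe sets, called at an adjusted p under 0.05), 0 of 41 factors were called at the medium dose against control, at the high dose against control or between the doses, nor in the F test over the 3 groups. The same was true of all probe sets, of which 0% were called in each of these 4 tests. At an unadjusted p under 0.05, 0 factors were higher and 1 was lower (2.44%) at the medium dose than in controls, beside 3.78% of all probe sets that were higher and 3.15% that were lower. For high dose minus control, 0 factors were higher and 0 lower, beside 2.77% and 2.17% of all probe sets. For high minus medium dose, 1 was higher and 0 lower, beside 2.48% and 3.49%. In the F test 1 factor passed, beside 5.89% of all probe sets. An ordinary linear model without moderation gave the same counts, 0 at an adjusted p under 0.05 and 1, 0 and 1 unadjusted. Leaving out 1 array in turn gave unadjusted counts of 1 to 4 for medium minus control, above 1 in 17 of 36 cases. It gave 0 to 1 for high minus control (1 without high dose piglet 2), and for high minus medium 2 without medium dose piglet 1 or high dose piglets 4 or 8 and 0 without high dose piglet 9. Both dose comparisons share the control piglets and are therefore not independent of each other.

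The intervals show how large a difference the chosen probe set of each factor leaves room for, taken 1 factor at a time. They were not widened for the number of factors, and those of other probe sets of the same genes are not given. Over the 41 factors, the 95% intervals of medium dose minus control reached from -0.30 (EEF1D) to 0.31 (EIF4EBP2) on the log2 scale, which is 0.815-fold to 1.242-fold. Those of high dose minus control reached from -0.27 (EIF1AY) to 0.26 (EEF1E1), or 0.831-fold to 1.198-fold. The interval held 0 for 40 of 41 factors at the medium dose and for 41 of 41 at the high dose. The median difference was -0.01 for medium dose minus control, with 17 factors above and 24 below 0, and -0.02 for high dose minus control, with 11 above and 30 below. Over all probe sets the medians were 6e-04 and -5e-04, with 50.3% and 49.7% above 0.

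**Figure D1:**
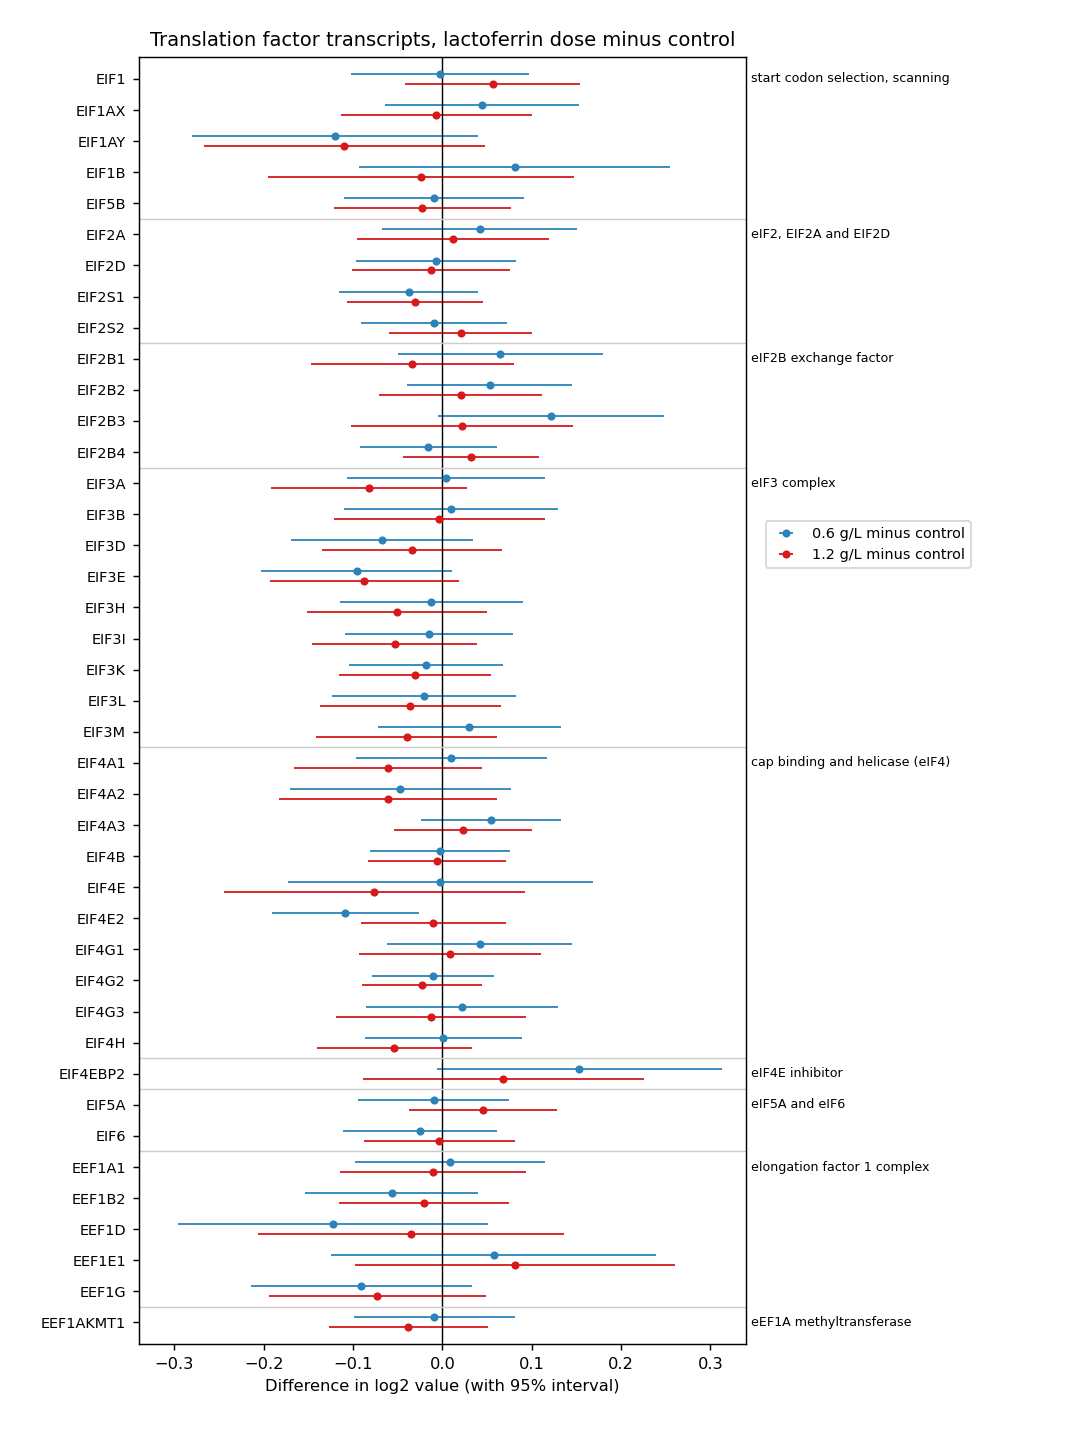
Difference in log2 value from control for each of the 41 factors, 0.6 g/L (blue) above 1.2 g/L (red), with 95% intervals from the linear model and factors grouped by role. All intervals but that of EIF4E2 at 0.6 g/L cross 0, and the points lie between -0.12 and 0.15.

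EIF4E2, the 4EHP protein that binds the cap without recruiting a ribosome and so represses its targets, had the smallest p of the factors. Its log2 values were 7.6, 7.7 and 7.8 (lowest, median and highest) in control piglets, 7.4, 7.6 and 7.7 at 0.6 g/L and 7.5, 7.7 and 7.9 at 1.2 g/L. In 8 of 12 medium dose piglets the value lay below the control median and in 0 above it, yet the groups overlapped at 7.6 and 7.7. The difference of medium dose minus control was -0.11 (SE 0.04, 95% interval -0.19 to -0.03, p = 0.0112, adjusted p = 0.617 in limma). High minus medium dose was 0.10 (SE 0.04, p = 0.0205, adjusted p = 0.811). Within set codes, medium minus control was 0 in S2 and negative in the others (S3 -0.133, S4 -0.167, S5 -0.15). The other probe sets of EIF4E2 gave medium minus control differences of 0.03 (p = 0.519) and -0.10 (p = 0.254), and across arrays they correlated with the chosen one at r = -0.055 and 0.346.

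The other cap-binding and helicase factors differed less from control at the medium dose. At the high dose EIF4E2 was at -0.01, and EIF4E (-0.08), EIF4A1 (-0.06) and EIF4A2 (-0.06) lay further from 0. EIF4E, the cap-binding protein whose availability sets much of cap-dependent translation, had values of 8.1, 8.45 and 8.7 in control piglets, the same 3 values at 0.6 g/L, and 7.8, 8.4 and 8.6 at 1.2 g/L. The lowest of these was high dose piglet 2, and the 3 groups overlapped over most of their range. EIF4G2, a scaffold that takes part in translation without eIF4E, was 12.0 to 12.2 in control and medium dose piglets and 12.0 to 12.1 in high dose piglets. EIF4G1, the main scaffold, had medians of 9.3 in all 3 groups. EIF4A1, a helicase, had medians of 10.1 in all 3, and EIF4A2, its paralog abundant in brain, medians of 13.0, 12.9 and 12.9 in control, medium and high dose piglets. EIF4H, a helper of the helicase, had medians of 10.75, 10.7 and 10.7 in that order, and its high dose difference was -0.05 (SE 0.04, p = 0.217, adjusted p = 0.976). Of the 10 eIF4 factors, 8 lay below 0 for high dose minus control (median -0.02) and 0 passed.

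EIF4EBP2, which sequesters eIF4E until the mTOR kinase phosphorylates it and is the main such inhibitor in brain, varied through a few low arrays. Its values were 9.0, 9.85 and 10 in control piglets, 9.7, 9.9 and 10.1 at 0.6 g/L and 9.1, 9.9 and 10.1 at 1.2 g/L. Control piglet 9 and high dose piglet 11, both of set S4, held the lowest values, and outside such arrays the groups overlapped almost fully. Medium minus control was 0.15 (SE 0.08, p = 0.0591, adjusted p = 0.733). S4 carried most of it, with 0.467 against 0.05 in S2, 0.033 in S3 and -0.1 in S5.

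Among the eIF2 and eIF2B factors, EIF2B3, the gamma subunit of the exchange factor, stood first. It measured 7.8, 7.95 and 8.3 in control piglets, 7.8, 8.15 and 8.2 at 0.6 g/L and 7.6, 8.0 and 8.4 at 1.2 g/L. In 11 of 12 medium dose piglets it was above the control median, although the highest control piglet was above all of them. Medium minus control was 0.12 (SE 0.06, p = 0.0581, adjusted p = 0.732), with 0.267 in S3 and 0.167 in S4 but 0.025 in S2 and -0.05 in S5. EIF2B1, the alpha subunit, had medians of 8.4 in all 3 groups and a high minus medium difference of -0.10 (SE 0.06, p = 0.0901, adjusted p = 0.811). EIF2S1, the eIF2 subunit whose phosphorylation lowers initiation under stress, had medians of 9.8, 9.7 and 9.8 in control, medium and high dose piglets. Of the 4 eIF2B subunits measured, 3 lay above 0 at each dose, with medians of 0.06 for medium and 0.02 for high dose minus control, and 0 passed.

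The eIF3 subunits lay slightly low at the high dose without passing the test. All 9 measured, of 14 listed, had high minus control differences below 0, with a median of -0.04 and 0 called, beside 30 of all 41 factors below 0. For medium minus control 6 of 9 were below 0 and the median was -0.02. EIF3E, a subunit that binds eIF4G, had values of 9.9, 10.2 and 10.4 in control piglets, 9.8, 10.05 and 10.2 at 0.6 g/L and 9.9, 10.1 and 10.3 at 1.2 g/L. Below the control median were 9 of 12 medium dose and 10 of 12 high dose piglets, with wide overlap of all 3 groups. Its differences were -0.10 (SE 0.05, p = 0.078, adjusted p = 0.763) for medium and -0.09 (SE 0.05, p = 0.102, adjusted p = 0.976) for high dose minus control. EIF3A, the largest subunit and a scaffold of the complex, measured 10, 10.3 and 10.4 in control piglets, 10, 10.3 and 10.5 at 0.6 g/L and 10, 10.2 and 10.4 at 1.2 g/L. Its high minus control difference was -0.08 (SE 0.05, p = 0.135, adjusted p = 0.976) and lay below 0 in each of the 5 set codes, from -0.175 in S2 to -0.033 in S3. Its high minus medium difference was -0.09 (p = 0.122, adjusted p = 0.825), and that of EIF3M was -0.07 (p = 0.174, adjusted p = 0.836).

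**Figure D2:**
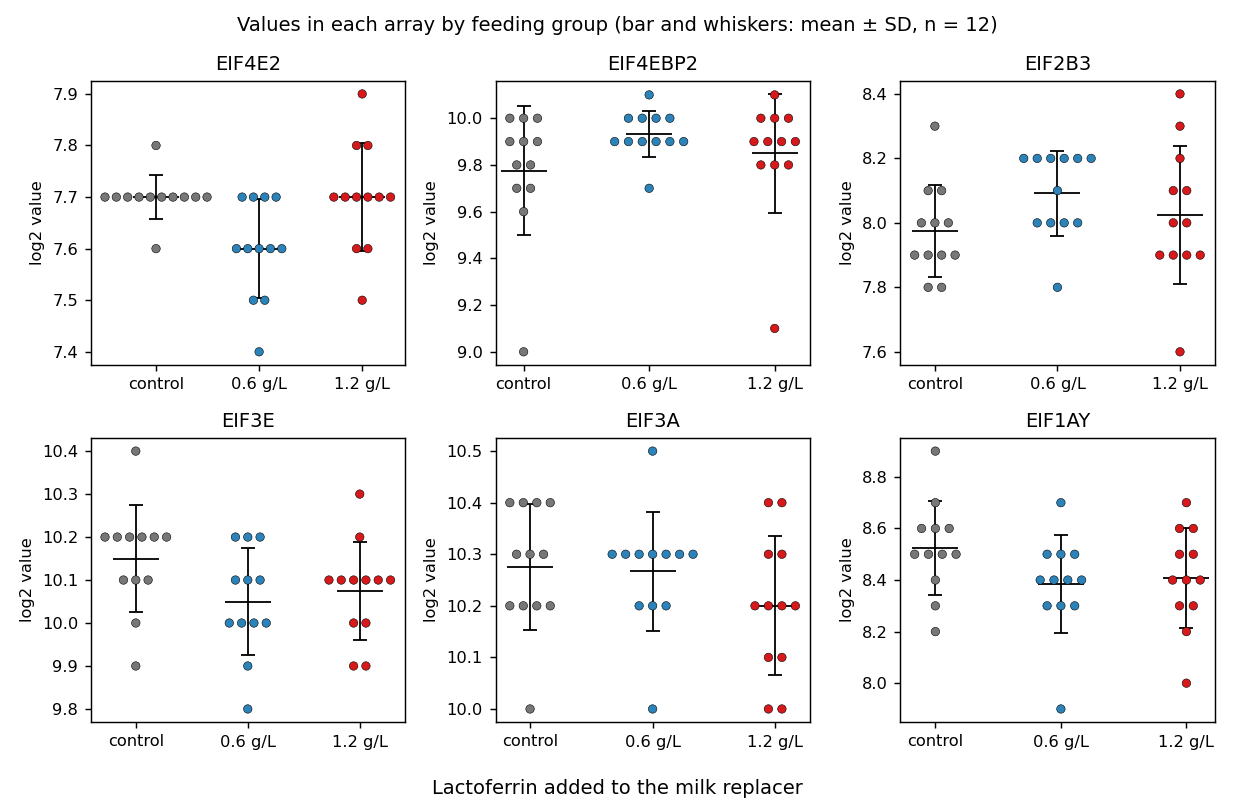
Log2 value in each array for EIF4E2, EIF4EBP2, EIF2B3, EIF3E, EIF3A and EIF1AY by feeding group, in dose order from control to 1.2 g/L. Bars and whiskers are mean ± SD of 12 piglets, and in every panel the 3 groups overlap.

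EIF1AY, a scanning factor encoded on the Y chromosome in humans, had values of 8.2, 8.5 and 8.9 in control piglets, 7.9, 8.4 and 8.7 at 0.6 g/L and 8.0, 8.4 and 8.7 at 1.2 g/L. Its differences from control were -0.12 (SE 0.08, p = 0.135, adjusted p = 0.823) at the medium and -0.11 (SE 0.08, p = 0.165, adjusted p = 0.976) at the high dose. The medium dose difference was -0.575 in S2, which holds 2 control arrays, and -0.033, 0.1 and 0 in S3, S4 and S5. Without S2 it was 0.03, so its direction rests on that set code.

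Of the 41 factors, the lowest medium minus control difference was that of an elongation factor, EEF1D, the delta subunit of the complex that reloads eEF1A with GTP. Its values were 9.0, 9.15 and 9.7 in control piglets, 8.9, 9.0 and 9.3 at 0.6 g/L and 8.9, 9.1 and 9.9 at 1.2 g/L. In 9 of 12 medium dose piglets it lay below the control median and in 3 above it, and the groups overlapped widely. Medium minus control was -0.12 (SE 0.09, p = 0.16, adjusted p = 0.838) and was below 0 in each of the 4 set codes that hold both groups, from -0.225 in S2 to -0.05 in S5. The S2 controls were 9.0 in control piglet 3 and 9.7 in control piglet 4, beside 8.9 to 9.3 at 0.6 g/L, so the sign in S2 rests on control piglet 4. In S4, control piglet 10 had 9.4, above the other S4 controls at 9.0 and 9.1. Control piglets 4 and 10 are among the arrays that stand apart, and EEF1D differences without them are not given. High minus control was -0.04 (SE 0.08, p = 0.678, adjusted p = 0.99). The oligodendrocyte markers, whose mean correlated with EEF1D across arrays (r = 0.854), also lay low at the medium dose. A fit with the neuron and oligodendrocyte means as covariates called 0 factors for feeding, and its EEF1D difference is not given. The part of the oligodendrocyte markers alone in the EEF1D difference was not tested. EEF1G, the gamma subunit of the same complex, had medians of 11.6, 11.5 and 11.5 in control, medium and high dose piglets. Its difference from control was -0.09 (SE 0.06, p = 0.144, adjusted p = 0.83) at the medium and -0.07 (SE 0.06, p = 0.229, adjusted p = 0.976) at the high dose. EEF1B2, the exchange subunit, had medians of 12.5, 12.45 and 12.5. EEF1A1, the tRNA carrier itself, had medians of 9.3, 9.3 and 9.25. EIF5A, which helps the ribosome over difficult stretches of peptide, had medians of 10.9 in all 3 groups. EIF6, which keeps the ribosomal subunits apart, had medians of 9.1, 9.1 and 9.15.

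Other genes of the translation pathway did not pass either. In 7 lists of 71 symbols, 36 were tested and 0 were called in any comparison. At an unadjusted p under 0.05, 1 of 36 was higher and 2 were lower at the medium dose than in controls, beside 3.78% and 3.15% of all probe sets. The higher one was PPP1R15B (0.09, p = 0.0241, adjusted p = 0.665), which directs a phosphatase to eIF2. The lower ones were DPH3 (-0.30, p = 0.00491, adjusted p = 0.54), which acts in the diphthamide modification of eEF2, and FMR1 (-0.12, p = 0.0088, adjusted p = 0.606), a repressor of translation at synapses. For high dose minus control 0 were higher and 1 was lower, beside 2.77% and 2.17% of all probe sets. The lower one was DPH5 (-0.13, p = 0.038, adjusted p = 0.976), another diphthamide enzyme. Of the 8 genes of the integrated stress response tested, 7 lay above 0 for high dose minus control, with a median of 0.02.

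Markers of several cell types lay to one side of 0 in the feeding comparisons, although 0 were called. Of 14 oligodendrocyte markers 13 had medium minus control differences below 0 (median -0.18, 2 at an unadjusted p under 0.05), and 14 of 14 had high minus medium differences above 0 (median 0.17, 2 at that p). All 8 microglia markers had differences from control below 0 at both doses (medians -0.18 and -0.20, with 4 and 3 at an unadjusted p under 0.05). Of 8 astrocyte markers, 6 lay below 0 for medium minus control (median -0.04) and 5 for high minus control (-0.01). Endothelial markers lay above 0, 5 of 7 at the medium dose (median 0.07) and 7 of 7 at the high dose (median 0.11, 2 at an unadjusted p under 0.05). At that p, 3.15% of all probe sets were lower for medium minus control and 2.17% for high minus control. Higher were 2.77% for high minus control and 2.48% for high minus medium. Of 11 neuron markers, 9 lay above 0 for medium minus control (median 0.06) and 10 below 0 for high minus medium (median -0.04). All 3 hippocampal neuron markers lay above 0 for medium minus control (median 0.34) and below 0 for high minus medium (median -0.34). The array means of the neuron markers spanned 10.42 to 10.99 in control, 10.38 to 10.98 in medium and 10.06 to 11.08 in high dose piglets. With both the neuron and the oligodendrocyte mean as covariates, the EIF4E2 difference at the medium dose was -0.12 (adjusted p = 0.406 in limma) and 0 factors were called in any feeding comparison. The difference between the 3′ and 5′ probe sets of actin, which is larger where the RNA is shorter, averaged 2.73 ± 0.37 in control, 3.05 ± 0.67 in medium and 2.80 ± 0.40 in high dose piglets (SD, n = 12 each). The part of the microglia, endothelial and hippocampal markers and of RNA length in the feeding results was not tested.

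More factors passed for set code than for feeding group. In the F test over S1 to S5, with feeding group as a term, 2 of 41 factors were called (4.88%), beside 2.62% of all probe sets. At an unadjusted p under 0.05, 12 of 41 factors passed (29.3%), beside 17.4% of all probe sets. The 2 were EIF4B and EIF2A.

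EIF4B, which stimulates the helicase eIF4A and is a target of signalling by S6 kinase, had its highest means in S1 and S5 and its lowest in S3. Its values (lowest, median and highest) were 10, 10.1 and 10.1 in S1, 9.9, 10 and 10 in S2, 9.7, 9.85 and 10 in S3, 9.8, 9.9 and 10.1 in S4 and 10, 10 and 10.2 in S5. The S1 and S5 arrays were all at or above 10, and S3 reached that level only at its highest. The F test gave p = 0.000514 and an adjusted p of 0.0328 in limma. Leaving out each array in turn gave adjusted p-values of 0.0191 to 0.0717. The other probe set of EIF4B correlated with this one at r = 0.312 and had p = 0.254.

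EIF2A, a factor that can carry the initiator tRNA outside the eIF2 pathway, likewise had its highest means in S1 and S5 and its lowest in S3. It measured 9.5, 9.55 and 9.7 in S1, 9.2, 9.4 and 9.6 in S2, 9.1, 9.3 and 9.4 in S3, 9.1, 9.4 and 9.4 in S4 and 9.3, 9.6 and 9.7 in S5. Every S1 array lay above every S3 and S4 array, while the S5 arrays overlapped both. The F test gave p = 0.000711 and an adjusted p of 0.0375, with 0.0109 to 0.0895 when each array was left out in turn. Its other probe set had p = 0.0652 and r = 0.405 with this one. S1 has 4 arrays, among them high dose piglet 2, and without that array the adjusted p-values were 0.0512 for EIF4B and 0.0789 for EIF2A. Without the 3 arrays of lowest hippocampal marker mean, 0 factors were called. With the neuron and oligodendrocyte means as covariates the adjusted p-values were 0.0246 and 0.0258.

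Below these came EIF3M (p = 0.003, adjusted p = 0.0761), EIF4EBP2 (p = 0.00587, adjusted p = 0.108) and EIF3K (p = 0.00657, adjusted p = 0.114), which did not pass. EIF3M was 9.0 to 9.1 in S1 and 8.5 to 8.9 in S3, and EIF3K was 10.6 to 10.9 in S1 and 10.4 to 10.7 in S3. Both are subunits of eIF3. The feeding by set interaction called 0 factors, beside 0.0167% of all probe sets, and 1 factor, EEF1E1, had an unadjusted p under 0.05 (p = 0.0364, adjusted p = 0.719), beside 6.92% of all probe sets.

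In S4 and S5 against S1 to S3, 0 factors were called, beside 0.505% of all probe sets that were higher and 0.0611% that were lower in S4 and S5. At an unadjusted p under 0.05, 1 factor was higher and 2 were lower, beside 3.27% and 3.43% of all probe sets, and leaving out 1 array in turn gave 2 to 6 in place of these 3, with 6 without medium dose piglet 1. EIF2B3 had a mean of 7.94 ± 0.17 in S4 (SD, n = 9) and 7.92 ± 0.08 in S5 (n = 5), against 8.13 ± 0.21 in S1 (n = 4), 8.14 ± 0.12 in S2 (n = 10) and 8.01 ± 0.16 in S3 (n = 8). Its difference was -0.17 (SE 0.05, p = 0.00319, adjusted p = 0.248). EIF4EBP2 differed by -0.19 (SE 0.07, p = 0.00837, adjusted p = 0.41), with an S4 mean of 9.63 ± 0.35 against 9.95 ± 0.05 in S3. The lowest S4 values were 9.0 in control piglet 9, 9.1 in high dose piglet 11 and 9.6 in control piglet 10, and the other S4 arrays lay within the range of the other set codes. EEF1B2 differed by 0.09 (SE 0.04, p = 0.033, adjusted p = 0.677), EIF6 by -0.07 (p = 0.069, adjusted p = 0.78) and EEF1AKMT1, a methyltransferase that acts on eEF1A, by -0.07 (p = 0.0696, adjusted p = 0.78).

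In S2 against S3, 0 factors were called, beside 0.00555% of all probe sets higher and 0% lower in S2. Most factors nevertheless lay above 0, with 31 above and 10 below and a median of 0.06, where all probe sets had a median of -9e-04. At an unadjusted p under 0.05, 4 were higher (9.76%) and 0 lower, beside 3.89% and 2.43%. Leaving out 1 array in turn gave 2 to 9, with 9 without medium dose piglets 1 or 6 or high dose piglet 8 and 2 without high dose piglet 7. With all arrays the 4 were EIF2B4 (0.14, SE 0.04, p = 0.00218, adjusted p = 0.436), EIF4B (0.14, SE 0.04, p = 0.00287, adjusted p = 0.465), EIF3D (0.15, SE 0.06, p = 0.0134, adjusted p = 0.669) and EEF1G (0.15, SE 0.07, p = 0.0333, adjusted p = 0.733). EIF4A1 came next (0.12, SE 0.06, p = 0.0504, adjusted p = 0.786). EIF2B4, the delta subunit of the exchange factor, was 8.7 to 8.8 in the S2 arrays and 8.5 to 8.7 in those of S3, so that the sets met only at 8.7. EIF3D, an eIF3 subunit that can itself bind the cap of some mRNAs, was 9.0 to 9.3 in S2 and 8.8 to 9.2 in S3. All 9 eIF3 subunits (median 0.09), all 4 eIF2B subunits (median 0.10) and EIF2S1, EIF2S2, EIF2A and EIF2D (median 0.06) lay above 0. Their other probe sets were split, with EIF3M (-0.013) and EIF2A (-0.063) below 0 and EIF3D (0.239) and EIF2B1 (0.154) above. The remaining groups were mixed: 6 eIF4 factors lay above and 4 below 0, 2 start codon and scanning factors above and 3 below, and 4 eEF1 factors above and 1 below.

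Many cell type markers lay to one side of 0 between S2 and S3 as well, and means of signs of RNA quality differed. The latter were not tested between set codes. For S2 minus S3, 8 of 8 microglia markers (median 0.18) and 6 of 8 astrocyte markers (0.11) lay above 0, and 7 of 7 endothelial (-0.12) and 10 of 11 neuron markers (-0.06) below 0, with 0 called. The actin difference averaged 3.00 ± 0.61 in S2 and 3.19 ± 0.39 in S3 (SD), beside 2.57 ± 0.49 in S4. The array's own 3′ and 5′ control probe sets for EEF1A1 differed by 0.77 ± 0.22 in S2 and 1.06 ± 0.21 in S3. Their part in the set code results was not tested. Across the 36 arrays the actin difference correlated with 1 of 41 factors at an adjusted p under 0.05, EIF3B, a core eIF3 subunit (r = -0.49, permutation p = 0.00257, adjusted p = 0.0485, rho = -0.444 with p = 0.00747). Without the 2 farthest arrays its r was -0.423, and the values within S2, S3 and S4 were -0.404, -0.525 and -0.584. Of all probe sets 4.55% had a negative and 0.794% a positive correlation past that threshold.

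**Figure D3:**
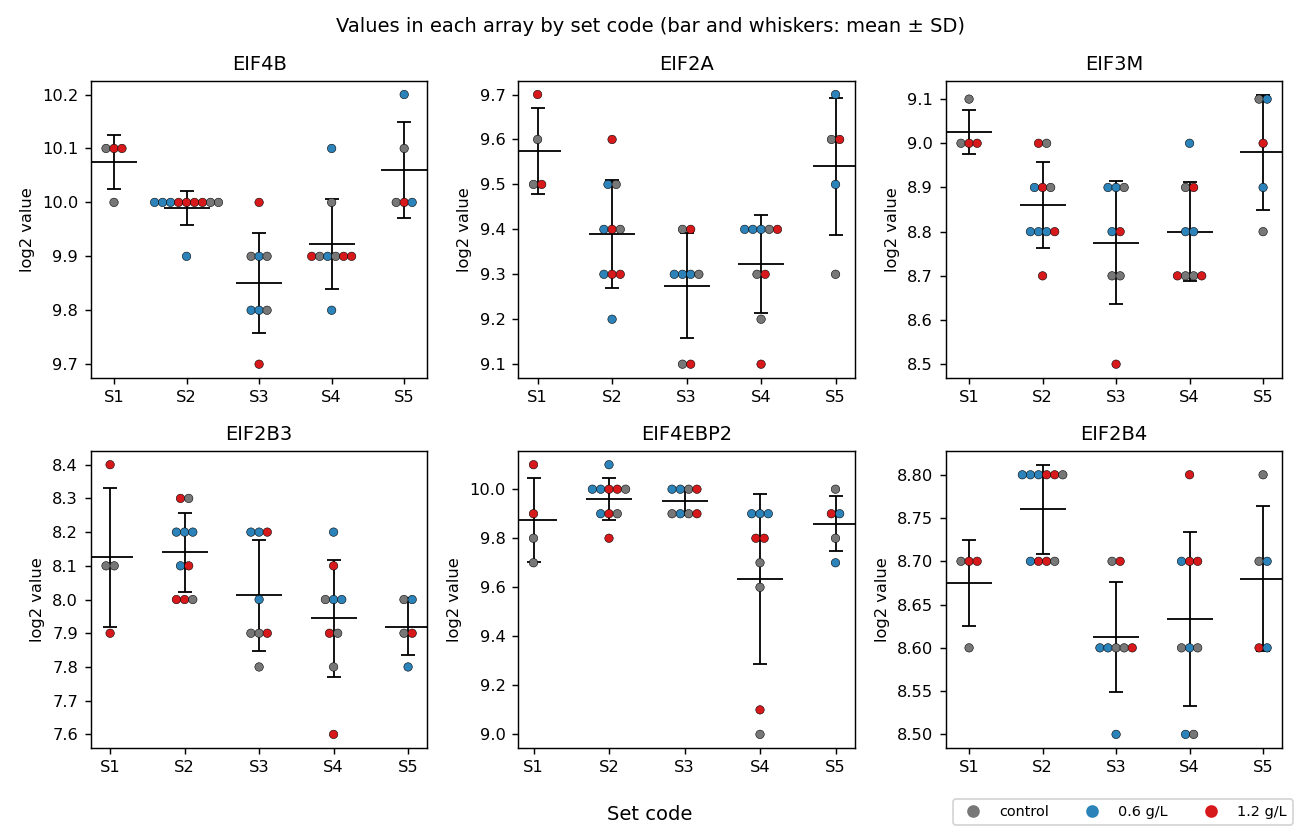
Log2 value in each array by set code for EIF4B and EIF2A, which passed the F test over set codes, and for EIF3M, EIF2B3, EIF4EBP2 and EIF2B4, which did not. Colours give the feeding group, bars and whiskers mean ± SD, and the low EIF4EBP2 arrays of S4 reach 9.0.

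Beyond feeding and set code, part of the factors followed the neuron marker mean of the sample, and some paralogs did so in opposite directions. The neuron mean is the mean of 12 markers such as SNAP25 and SYT1 and ran from 10.06 in high dose piglet 2 to 11.08 in high dose piglet 1, with a median of 10.85. The oligodendrocyte mean, over 15 markers such as MBP, ran from 9.35 in high dose piglet 1 to 10.70 in high dose piglet 2. The 2 means opposed each other (r = -0.727, permutation p = 1e-05, rho = -0.592, r = -0.478 without the 2 farthest arrays). Within set codes their r was -0.651 in S2, -0.054 in S3 and -0.514 in S4. Among 41 factors, 6 correlated positively with the neuron mean at an adjusted p under 0.05 (14.6%) and 6 negatively (14.6%), beside 14.9% and 12.5% of all probe sets. Translation factors were thus about as often linked to the neuron mean as other transcripts. The p-values come from 100000 permutations, the smallest they can give being 1e-05, with Benjamini-Hochberg adjustment over 18006 probe sets.

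EIF1B, the paralog of the start codon factor eIF1, had the highest r, 0.779 (p = 1e-05, adjusted p = 0.000289, rho = 0.658). Its value was 10.5 in the array of lowest neuron mean, high dose piglet 2, and 11.3 in that of the highest, high dose piglet 1. Without the 2 farthest arrays r was 0.666, and within S2, S3 and S4 it was 0.838, 0.358 and 0.756. EIF1 itself ran the other way at r = -0.624 (p = 0.00025, adjusted p = 0.00265, rho = -0.501), with 12.1 in high dose piglet 2 and 11.7 in high dose piglet 1. Its r was -0.363 without the 2 farthest arrays and -0.624, -0.442 and -0.455 in S2, S3 and S4.

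Among the helicases EIF4A2 and EIF4A3 passed in opposite directions, while of the cap-binding proteins EIF4E passed and EIF4E2 did not. EIF4E had r = 0.709 (p = 4e-05, adjusted p = 0.000705, rho = 0.618 with p = 0.00013), with 7.8 in high dose piglet 2 and 8.6 in high dose piglet 1. It was 0.519 without the 2 farthest arrays and 0.673, 0.189 and 0.793 in S2, S3 and S4. EIF4E2 had r = -0.325 with an adjusted p of 0.141, which did not pass. EIF4A2 had r = 0.692 (p = 2e-05, adjusted p = 0.000454, rho = 0.575 with p = 0.00029), with 12.5 and 13.1 in the same arrays. It was 0.54 without the 2 farthest arrays and 0.747, 0.223 and 0.787 within S2, S3 and S4. EIF4A3, the helicase of the exon junction complex, had r = -0.461 (adjusted p = 0.0257), and EIF4A1 had r = -0.28 (adjusted p = 0.21).

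Among the elongation factors, EEF1E1, a scaffold of the tRNA synthetase complex, had r = 0.624 (p = 9e-05, adjusted p = 0.00126, rho = 0.595 with p = 0.00014). It was 0.413 without the 2 farthest arrays and 0.746, 0.116 and 0.616 within S2, S3 and S4. EEF1D, the delta subunit of the exchange complex, had the most negative r, -0.80 (p = 1e-05, adjusted p = 0.000289, rho = -0.634 with p = 9e-05). It measured 9.9 in high dose piglet 2, 9.7 in control piglet 4 and 8.9 in high dose piglet 1. Its r was -0.676 without the 2 farthest arrays, -0.812 in S2, 0.038 in S3 and -0.757 in S4. S3 is the set code in which the neuron mean varied least, with an SD of 0.06 over 8 arrays. EIF3D (r = -0.46, adjusted p = 0.0233), EEF1G (r = -0.456), EIF2D (r = -0.456), EIF4G3 (r = 0.498) and EIF1AX (r = 0.423) complete the 12 factors that passed. These and EIF4A3 were weaker by rank, with a rho of -0.266 for EIF3D (p = 0.117), -0.209 for EEF1G (p = 0.222), -0.287 for EIF2D (p = 0.0896), -0.286 for EIF4A3 (p = 0.0921), 0.378 for EIF4G3 (p = 0.0239) and 0.405 for EIF1AX (p = 0.0145). Without high dose piglet 2 the r of EEF1G was -0.239 and that of EIF4A3 -0.292, while EIF3D had -0.377, EIF2D -0.432, EIF4G3 0.452 and EIF1AX 0.581. Within S3 the r of EIF3D was 0.441 and that of EIF2D 0.337, against -0.618 and -0.859 in S2.

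**Figure D4:**
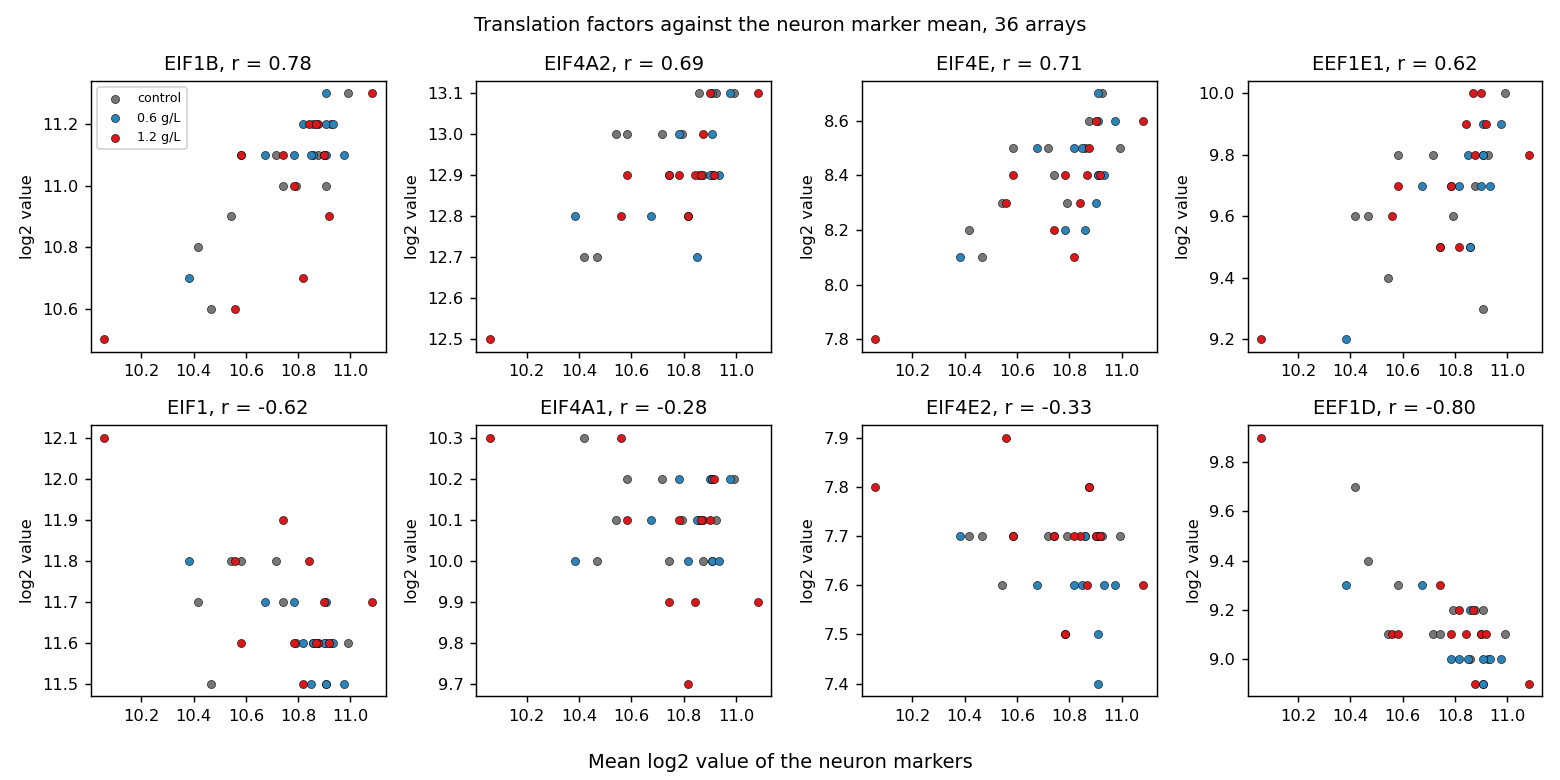
Log2 value of 8 factors against the mean log2 value of the neuron markers, 1 point for each of 36 arrays. EIF1B, EIF4A2, EIF4E and EEF1E1 rise with the marker mean, EIF1 and EEF1D decline, and high dose piglet 2 is the array at 10.06.

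With the oligodendrocyte mean, 4 of 41 factors correlated positively (9.76%) and 4 negatively (9.76%), beside 13.5% and 14.8% of all probe sets. EEF1D led at r = 0.854 (p = 1e-05, adjusted p = 0.000194, rho = 0.704), with 0.646 without the 2 farthest arrays and 0.833, 0.914 and 0.693 in S2, S3 and S4. EIF3D (0.497), EIF1 (0.472) and EEF1G (0.459) were the other positive ones, and EIF4E (-0.647), EIF1B (-0.62), EIF4A2 (-0.62) and EEF1E1 (-0.419) the negative ones. By rank EIF1 (rho = 0.215, p = 0.206) and EEF1G (rho = 0.229, p = 0.178) did not reach a p under 0.05. Without high dose piglet 2 the r was 0.197 for EIF1, 0.246 for EEF1G and -0.247 for EEF1E1, and without the 2 farthest arrays it was 0.179, 0.079 and -0.241. EIF3D had 0.322 without the 2 farthest arrays, EIF4E -0.461, EIF1B -0.443 and EIF4A2 -0.347. These 8 factors all passed with the neuron mean as well, in the opposite direction.

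These relations depend in part on 3 arrays. Without high dose piglet 2 and control piglets 4 and 10, 9 relations passed, against 20 over all arrays. With the oligodendrocyte mean EEF1D had r = 0.607 (adjusted p = 0.00851), while EIF4E (r = -0.406, adjusted p = 0.158), EIF1B (-0.371, 0.209), EIF4A2 (-0.275, 0.421), EIF1 (0.262, 0.452) and EEF1E1 (-0.225, 0.536) did not pass. With the neuron mean EIF1B kept r = 0.629 (adjusted p = 0.00635) and EIF4E r = 0.489 (adjusted p = 0.0375), while EIF4A2 had r = 0.417 (adjusted p = 0.0888). EEF1E1 (r = 0.54), EEF1D (-0.543) and EIF1 (-0.57) also passed with the neuron mean.

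**Figure D5:**
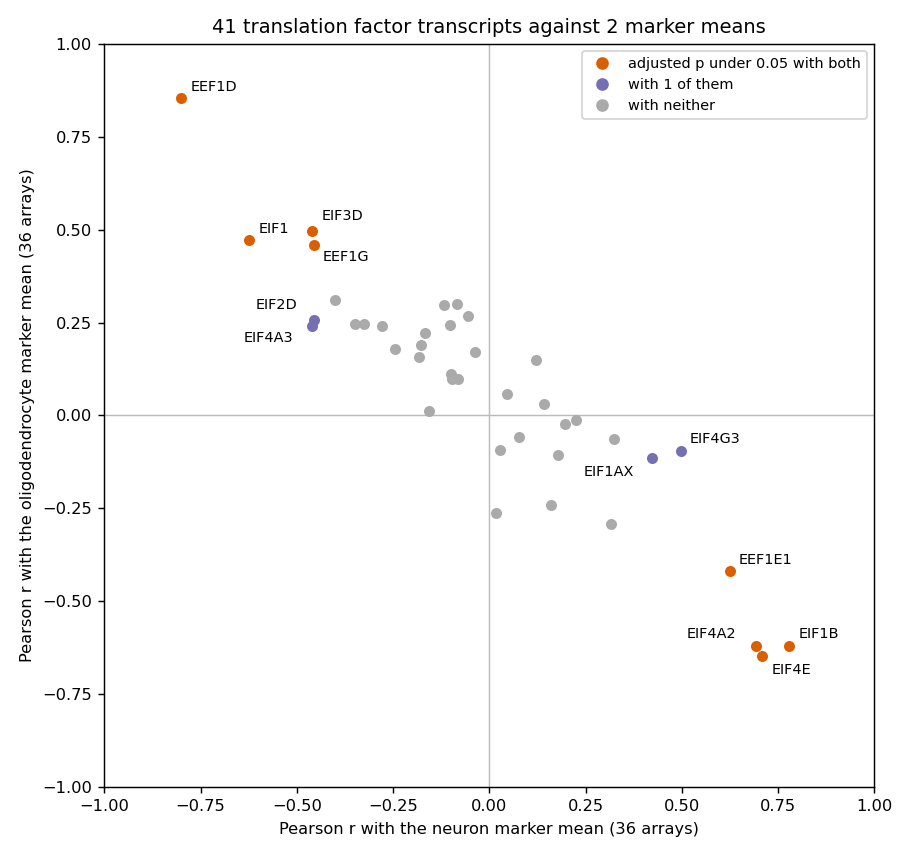
Pearson r of each of the 41 factors with the neuron marker mean (horizontal) and the oligodendrocyte marker mean (vertical) over 36 arrays. EEF1D lies at the upper left end and EIF1B, EIF4E and EIF4A2 at the lower right, while most factors gather near 0 on both axes.

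The chosen probe sets of the factors varied little between animals, while some other probe sets of the same genes varied more. The residual SD after feeding group and set code had a median of 0.112 over the 41 factors (0.058 to 0.220), against 0.169 over all probe sets tested. For 35 of 41 it was below the median of probe sets within 0.5 log2 units of the same level. EEF1E1 (0.220), EIF1B (0.209), EEF1D (0.209) and EIF4E (0.205) varied most, and each of these passed with both marker means. EIF4G2 (0.058), EIF2B4 (0.073), EIF2S1 (0.074) and EIF4A3 (0.075) varied least, and of 230 probe sets at a level like that of EIF4G2, 0% had a lower SD.

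Pairs of factors were weakly correlated across the 36 arrays. The mean r over 820 pairs was 0.124, from -0.723 to 0.811, where pairs over all probe sets averaged 0.0014. These values describe arrays that share set codes and tissue makeup. With feeding group and set code removed the mean was 0.073. Within eIF3 the mean of 36 pairs was 0.233 (0.104 with both removed), and within eIF2B 0.286 (0.132). Among EIF2S1, EIF2S2, EIF2A and EIF2D it was 0.188 (0.243), and among the start codon and scanning factors 0.182 (0.166). The eIF4 factors (0.11, or 0.089 with both removed) and the eEF1 group (0.077, or 0.076) lay near or below the mean of all pairs. The highest pairs were EIF2A with EIF3M (0.811), EIF1AY with EIF3E (0.794), EEF1B2 with EIF2S2, a subunit of eIF2 (0.783), and EIF1B with EIF4E (0.752). The lowest were EIF2A with EIF5A (-0.723), EEF1D with EIF4E (-0.701) and EEF1D with EIF4A2 (-0.696).

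Probe sets of a single gene often disagreed, which limits what one of them says about its gene. Of the 22 other probe sets of the 41 factors, 21 were tested, 4 correlated with the chosen one at r of 0.5 or more, 4 had an r below 0, and 2 were called in the F test over set codes. One of these called probe sets belongs to EIF4EBP2 (r = 0.066 with the chosen one, adjusted p = 0.0328, S2 minus S3 0.36) and the other to EIF4H (r = -0.484, adjusted p = 0.0432). The EIF4EBP2 probe set that followed the chosen one (r = 0.858) differed by 0.03 for medium minus control (p = 0.723) and by -0.14 for S4 and S5 minus S1 to S3 (p = 0.0358). The remaining EIF4EBP2 probe sets had medium minus control differences of 0.015 (p = 0.848), 0.127 (p = 0.0413) and 0.105 (p = 0.142), unadjusted in limma. Their r with the chosen one was 0.066, -0.07 and 0.353 in that order. EEF1A1 is also read by array control probe sets, which were left out of the tests as controls. Its control in the middle of the transcript measured 13.2 to 13.8 over all arrays, with a medium minus control difference of -0.08 (p = 0.138) and a high minus control difference of 0.01 (p = 0.916). Between set codes it did not follow the chosen probe set. Its S2 minus S3 difference was 0.16 (p = 0.00808, adjusted p = 0.61 in limma) and its F test over set codes had p = 0.0097 (adjusted p = 0.136), against -0.01 (p = 0.919) and p = 0.249 for the chosen one. Which of them reports EEF1A1 better was not tested. The difference between its 3′ and 5′ controls followed that of actin at r = 0.688 (permutation p = 2e-05, rho = 0.658, r = 0.733 without the 2 farthest arrays), with 0.823, 0.564 and 0.756 in S2, S3 and S4.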

How the data were processed

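Per the submitters' processing notes, the authors ran RMA in Affymetrix Expression Console 1.1, and they deposited the log2 value of every probe set. RMA corrects background, brings arrays to a common distribution and summarises probes, so overall shifts between arrays are removed. Each value is rounded to 0.1, which limits small differences. No genome build was given in the sources used here, and no sequence or coordinate was used. Of 23999 probe sets besides 124 array controls, 10069 carry 1 gene symbol in the array annotation, 198 several and 13732 none. EIF4EBP3, found only on 2 probe sets shared with another gene, was not counted. EIF2B5, EIF4EBP1, EIF5, EEF1A2, EEF2 and EEF2K were not analysed here.

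Probe sets with a mean at or above the 25th percentile (log2 4.92) were kept, 18006 in all. Limma 3.58.1 in R 4.3.3 fitted feeding group and set code over all 36 samples, with eBayes and Benjamini-Hochberg adjustment over 18006 probe sets. Correlations used 100000 permutations in Python 3.11.15 with numpy 2.4.6 and the same adjustment, in place of one over the factors alone as first planned. The fits were tested on simulated data. The number of arrays limits the precision.

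Members, lists and set comparisons were chosen with earlier results of these data known. Named were the 5 factors of smallest p in each comparison, every one called, the 4 largest and 4 smallest in residual SD, the 4 highest and 4 lowest in r with the neuron mean, listed key factors such as EIF2S1, EIF4E, EIF4EBP2 and EEF1A1, and up to 2 genes of each pathway list by p. Factors named as complete sets of those that passed a correlation, and pairs, were chosen after their values were seen. Replicate numbers were not treated as pairing the samples. Same-numbered samples had a median correlation of deviations from group means of 0.001, with 8 of 36 pairs over 0.1. For deviations from group and set means it was -0.104, beside 0.018 for other pairs. Such correlations cannot show whether the numbers pair animals.

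Alternatives were other blocks, filters, scalings, array weights, moderation, probe set averaging, a random amount within the rounding, covariates for marker means, the spike-in control Dap, and leaving out samples, set codes or arrays that stand apart.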

Additional observations from a re-analysis of the deposited data

Results flagged for a closer look

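The 13 factors named in the set code comparisons gave 65 groups of values within set codes of 4 to 10 arrays. In 8 of 65, the gap between the lowest or highest array and the next was large beside the group's range (Dixon's ratio, 95% level). Chance gives about 1 in 20 such groups for values that are not rounded. With values rounded to 0.1 that rate need not hold, so 8 of 65 cannot be read as an excess. Most of these gaps are a single step. EIF4A1 was 9.7 in high dose piglet 7 of S3, where the next value was 10. EEF1AKMT1 was 9.6 in control piglet 4 of S2, with 9.4 next. EIF4B was 10 in control piglet 2 of S1 and 9.9 in medium dose piglet 2 of S2. EIF2B4 was 8.6 in control piglet 1 of S1, and EIF3M was 9.1 in control piglet 2 of S1. EIF3K was 10.5 in high dose piglet 3 of S2, and EIF3D was 9.0 in control piglet 9 of S4. The cause was not tested.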

How the results depend on the processing

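Counts of factors called for feeding were 0 under all 59 settings run. For the F test over set codes, where 2 were called, the count was 0 with the replicate block together with the set code, 0 when each gene's probe sets were averaged, 1 after quantile normalisation, 1 with random amounts within the rounding (EIF3M, adjusted p = 0.0427), and 0 without the 3 arrays of lowest hippocampal marker mean, a choice made after seeing the data. Leaving out 1 array gave 0 to 3, with fewer than 2 in 14 of 36 cases: 0 without control piglets 1, 7 or 11, medium dose piglets 5, 6 or 11 or high dose piglets 2, 7 or 11, and 1 without control piglets 2 or 5, medium dose piglets 7 or 12 or high dose piglet 12. Replicate numbers were not treated as pairs in the main fit. With the replicate block in place of the set code 0 factors were called for feeding. With the replicate block and the set code together, the S4 and S5 minus S1 to S3 difference was 0.35 for EIF4EBP2 and -0.41 for EEF1B2, against -0.19 and 0.09. Replicate numbers rise with the set code, from 1 and 2 in S1 to 11 and 12 in S5. The block and the set code therefore overlap, and set code results under this setting rest on the few samples that separate them. EIF4H for high minus control was 0.004 when each gene's probe sets were averaged, and EIF1AY for medium minus control 0.026 without S2. Where 20 relations with marker means passed over all arrays, 11 passed without high dose piglet 2 and 16 without control piglet 4, 9 without the 2 arrays of highest oligodendrocyte mean, 9 without the 3 arrays of lowest hippocampal marker mean and 5 on the 26 arrays with the Dap spike-in, all but the first of these chosen after seeing the data. The causes were not tested.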
